A study of Rattus norvegicus with 12 samples.

Results

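The genes of the creatine kinase and phosphotransfer system were followed through 12 RNA-seq libraries of neonatal rat ventricular myocytes (NRVMs), primary heart muscle cells taken from newborn rats and kept in culture. The members were fixed by symbol as Ckm, Ckb, Ckmt1, Ckmt2, Ak1, Ak4, Slc6a8, Gatm and Gamt, and all 9 were found among the 18469 genes of the deposited tables. The cells came from Sprague-Dawley rats and were transfected with a negative control siRNA (siNeg) or with siSlc25a26, an siRNA against the mitochondrial carrier of S-adenosylmethionine (SAM). Phenylephrine (PE), a drug that activates α-adrenergic receptors and induces hypertrophy of cardiomyocytes, was added 12 h after transfection for 36 h, or was left out. This gives 4 groups of 3 libraries, siNeg, siNeg PE, siSlc25a26 and siSlc25a26 PE, described by the submitters as independent biological replicates. All cells were transfected, so no library shows untransfected cells.

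The targeted gene was measured first. Slc25a26 was at 33.2, 31.6 and 29.3 CPM (counts scaled to a common library total with TMM factors) in siNeg and at 15.8, 14.9 and 14.7 CPM in siSlc25a26, a log2 fold change of -1.08 (SE 0.0798, adjusted p = 1.08e-05). With PE it was at 113, 106 and 86.2 CPM in siNeg PE and in the libraries labelled siSlc25a26 PE at 102, 106 and 98.8 CPM, which overlap (log2 fold change -0.0062, SE 0.101, adjusted p = 0.969). The targeted gene thus does not bear out the label of the latter libraries, a limit on all directions drawn from them below. In other genes these libraries did differ from siNeg PE. Of 12 interferon response genes, 11 were called as higher (median log2 fold change 6.27 under PE, beside 6.58 without PE). Why Slc25a26 itself did not differ was not tested. The estimated counts of Slc25a26 were not whole numbers in any library, and it is uncertain to that extent, as is Gamt below.

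Creatine is made in a pair of steps. Gatm encodes the arginine:glycine amidinotransferase that makes guanidinoacetate, and Gamt encodes the methyltransferase that turns it into creatine with SAM as the methyl donor. Muscle takes up most of its creatine from outside through the transporter encoded by Slc6a8. Creatine kinases then pass phosphate between ATP and creatine: Ckm encodes the muscle form and Ckb the brain form of the cytosolic enzyme, while Ckmt2 (sarcomeric) and Ckmt1 (ubiquitous) encode the mitochondrial forms. Adenylate kinases exchange phosphate between adenine nucleotides, with Ak1 in the cytosol and Ak4 in the mitochondrial matrix. In the developing heart Ckb is known as the early and Ckm as the later cytosolic form.

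The results below turn on Ckm against Ckb and on Gatm against Gamt, so the 250 bases before the start of each of these genes are shown, from the RefSeq promoter table of build GRCr8, 5′ to 3′ on the gene's strand. An entry was found for 8 of the 9 members, Ak1 excepted. Capitals mark the TATA box letters TATAAA, the GC box letters GGGCGG, the letters of the CCAAT box and the E-box letters CANNTG. Both strands were searched and the reverse complement is marked too, which for the E-box is the same motif.
Ckm (GRCr8 chr1:88189211-88189460, plus strand): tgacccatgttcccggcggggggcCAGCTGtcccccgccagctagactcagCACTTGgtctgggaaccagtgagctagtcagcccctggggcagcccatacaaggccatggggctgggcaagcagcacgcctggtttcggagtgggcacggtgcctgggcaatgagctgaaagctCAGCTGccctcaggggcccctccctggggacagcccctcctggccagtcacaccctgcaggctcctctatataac
Ckb (GRCr8 chr6:136553465-136553714, minus strand): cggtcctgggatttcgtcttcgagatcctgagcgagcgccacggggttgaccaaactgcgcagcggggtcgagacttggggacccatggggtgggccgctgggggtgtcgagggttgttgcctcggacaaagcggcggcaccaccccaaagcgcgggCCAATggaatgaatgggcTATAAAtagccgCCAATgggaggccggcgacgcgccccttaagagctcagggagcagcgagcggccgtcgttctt
Gatm (GRCr8 chr3:130129094-130129343, minus strand): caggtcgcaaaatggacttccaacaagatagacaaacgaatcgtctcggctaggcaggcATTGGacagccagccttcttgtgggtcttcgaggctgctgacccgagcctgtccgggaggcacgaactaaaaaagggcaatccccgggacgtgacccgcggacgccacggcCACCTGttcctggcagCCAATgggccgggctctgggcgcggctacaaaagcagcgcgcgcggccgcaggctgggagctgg
Gamt (GRCr8 chr7:10099034-10099283, plus strand): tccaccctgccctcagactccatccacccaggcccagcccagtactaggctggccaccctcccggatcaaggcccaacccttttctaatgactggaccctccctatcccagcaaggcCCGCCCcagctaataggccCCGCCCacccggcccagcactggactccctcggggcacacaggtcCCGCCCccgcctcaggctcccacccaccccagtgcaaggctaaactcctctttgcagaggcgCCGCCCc
The Ckm window held 3 CANNTG matches and none of the other motifs. The Ckb window held 1 TATAAA and 2 CCAAT matches and no CANNTG. The Gatm window held 2 CCAAT and 1 CANNTG matches, and the Gamt window held 4 GGGCGG matches, all on the opposite strand. Among the 33469 promoter windows of this length, 12.9% held the TATA box letters, 30.5% the GC box, 34.0% the CCAAT box and 65.5% the E-box letters. These matches describe letters, and nothing was measured at these promoters here.

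Total estimated counts lay between 24770972 and 28709049 per library, so that 3 counts correspond to between 0.0993 and 0.120 CPM. All 10 cardiomyocyte markers checked (such as Tnnt2 and Actn2) were at or above 1 FPKM on average in every group. All 10 fibroblast markers were so too, so this threshold does not tell these cell types apart. The cardiomyocyte markers summed to 21469.5 to 23601 FPKM in siNeg, 33305 to 39262 in siNeg PE and 19565 to 20563 in siSlc25a26. Their sum was 40349 to 43046 FPKM in the libraries labelled siSlc25a26 PE. In every group these sums lay above those of the fibroblast markers, but the share of each cell type was not measured. Fibroblast markers were also present, with a summed level over 10 genes of 4893 to 5329 FPKM in siNeg, 2656 to 2687 in siNeg PE, 2911 to 3275 in siSlc25a26 and 1795 to 2052 in the libraries labelled siSlc25a26 PE. The 6 smooth muscle and pericyte markers summed to 148 to 154 FPKM in siNeg and 102 to 105 in siNeg PE. Their sum was 129 to 137 in siSlc25a26 and 123 to 134 in the libraries labelled siSlc25a26 PE. Of 7 endothelial and 7 macrophage markers, sums did not exceed 6.20 and 21.2 FPKM in any library. The summed level of 12 interferon response genes was 57.8 to 102 FPKM in the siNeg and siNeg PE libraries, against 2486 to 5218 FPKM in the 6 libraries labelled siSlc25a26 with and without PE.

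Levels of different genes were set side by side as FPKM, which scales reads by transcript length. In siNeg, Ckm was the most abundant member at 989 ± 54.9 FPKM (SD, n = 3), followed by Ckb at 188 ± 11.1, Ak1 at 146 ± 1.72, Slc6a8 at 42.8 ± 0.785, Gamt at 42.4 ± 2.03, Ckmt2 at 13.1 ± 1.79, Gatm at 5.56 ± 0.580, Ak4 at 2.91 ± 0.735 and Ckmt1 at 0.263 ± 0.0737. Slc6a8 and Gamt overlapped in this order and no other neighbours did. Ckm stayed first in all 4 groups. Ckb and Ak1 took the second and the third place in every group but siSlc25a26, in which Ak1 (160 ± 3.73 FPKM) lay above Ckb (94.7 ± 5.75 FPKM) without overlap. Gatm moved up from the seventh place in siNeg to the fifth in the libraries labelled siSlc25a26 PE (12.5 ± 0.854 FPKM), where Gamt had moved down to the seventh (6.73 ± 0.934 FPKM). In those libraries Ak4 and Ckmt1 overlapped, as did Gamt and Ckmt2 in siNeg PE, and Ak4 and Gatm in siSlc25a26.

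**Figure D1:**
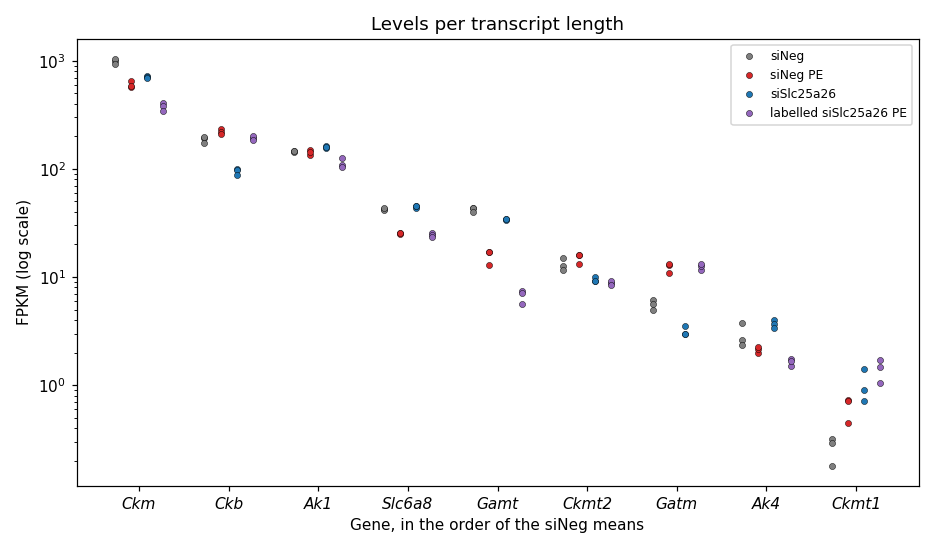
FPKM of the 9 genes on a log axis, ordered from left to right by their mean in siNeg; each point is 1 library and colours mark the 4 groups. Ckm lies highest in every group and Ckmt1 is the lowest in siNeg at 0.263 FPKM, while Gamt falls below Gatm only in the libraries labelled siSlc25a26 PE.

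Changes were tested gene by gene over the whole count table with edgeR, and calls needed an adjusted p under 0.05 and more than a 1.5-fold difference. With PE in siNeg cells, 5 of the 9 members were called. Gatm and Ckmt1 rose, and Gamt, Slc6a8 and Ckm fell; over all genes tested, 20.7% were called, 12.4% as higher and 8.24% as lower. With PE in the siSlc25a26 cells, Gatm and Ckb rose and Gamt, Ak4, Ckm and Slc6a8 fell, 6 of 9, against 20.5% of all genes (10.1% higher and 10.4% lower; with limma on log2(FPKM + 1), 27.4% of all calls were higher in place of 49.2%). Between siSlc25a26 and siNeg without PE, Ckmt1 was higher and Ckb, Gatm and Ckmt2 were lower, 4 of 9, against 16.1% of all genes (8.92% higher and 7.20% lower). Between the libraries labelled siSlc25a26 PE and siNeg PE, Ckmt1 was higher and Gamt, Ckmt2 and Ckm were lower, again 4 of 9, against 15.8% of all genes (7.71% higher and 8.10% lower).

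All 9 members passed the filter on low counts in every comparison. The median log2 fold change of the members was 0.015 for PE in siNeg, -0.32 for PE in siSlc25a26, -0.38 for siSlc25a26 without PE and -0.27 for siSlc25a26 under PE, beside 0.00016, -0.0036, 0.015 and -0.0028 over all genes tested. The members were thus called in both directions in each comparison. Both PE comparisons use separate libraries, whereas each siRNA comparison shares its libraries with the PE comparisons.

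**Figure D2:**
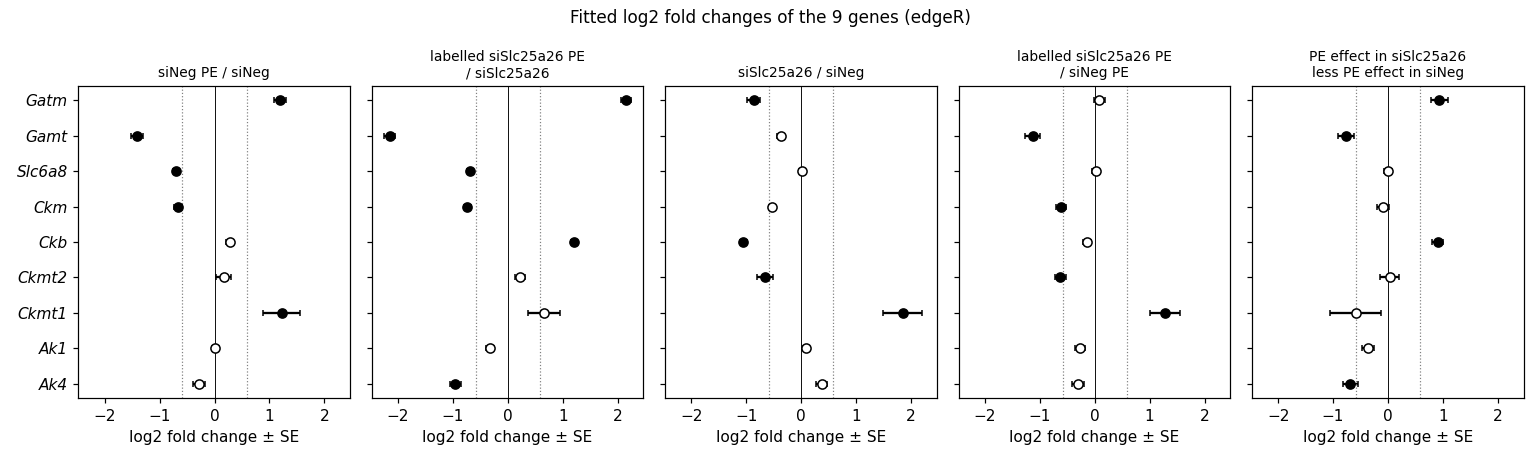
Fitted log2 fold changes (points) with their standard errors (bars) for the 9 genes in the 4 pairwise comparisons and, in the last panel, the PE effect in siSlc25a26 less that in siNeg. Filled points passed a fold of 1.5 (dotted lines) and an adjusted p of 0.05; Gatm and Gamt lie on opposite sides of 0 in both PE panels, at 1.19 and -1.41 and at 2.15 and -2.15.

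The creatine synthesis genes moved in opposite directions with PE. Gatm was at 13.0, 12.0 and 10.6 CPM in siNeg and at 28.8, 29.3 and 23.8 CPM in siNeg PE. All PE libraries lay above all siNeg libraries, a 2.28-fold rise (log2 fold change 1.19, SE 0.112, adjusted p = 0.000125). In siSlc25a26 Gatm was at 6.17, 7.34 and 6.33 CPM, which is below every siNeg library. That fall was 1.83-fold (log2 fold change -0.87, SE 0.119, adjusted p = 0.000486). In the libraries labelled siSlc25a26 PE it was at 27.3, 29.6 and 30.4 CPM, which overlaps with siNeg PE (log2 fold change 0.083, SE 0.0988, adjusted p = 0.537). The PE effect in siSlc25a26 was thus a 4.43-fold rise to about the level of siNeg PE (log2 fold change 2.15, SE 0.0943, adjusted p = 3.88e-07).

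Gamt, which carries out the SAM-dependent step, went down with PE. It was at 52.9, 52.9 and 48.6 CPM in siNeg and at 16.5, 21.6 and 20.6 CPM in siNeg PE, and the groups did not overlap. The fall was 2.65-fold (log2 fold change -1.41, SE 0.106, adjusted p = 4.41e-05). In siSlc25a26 Gamt was at 40.2, 39.9 and 40.9 CPM, below all siNeg libraries but 1.30-fold and so inside the fold line (log2 fold change -0.38, SE 0.0593, adjusted p = 0.00101). The libraries labelled siSlc25a26 PE were the lowest of all, at 10.03, 9.46 and 7.54 CPM. Gamt fell 4.45-fold with PE in these cells (log2 fold change -2.15, SE 0.0982, adjusted p = 4.73e-07) and was 2.18-fold lower than in siNeg PE (log2 fold change -1.13, SE 0.133, adjusted p = 0.000254). The estimated counts of Gamt were not whole numbers in any of the 12 libraries; how fractions arose in the counting is not given in the sources used here, and Gamt is uncertain to that extent.

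As a description, the ratio of Gamt to Gatm in FPKM was 7.12, 7.74 and 8.11 in siNeg, and 1.01, 1.29 and 1.53 in siNeg PE. It was 11.6, 9.50 and 11.4 in siSlc25a26, the highest of the groups. In the libraries labelled siSlc25a26 PE it was 0.646, 0.558 and 0.431, and Gamt was there the less abundant of the pair. No group overlapped with another.

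**Figure D3:**
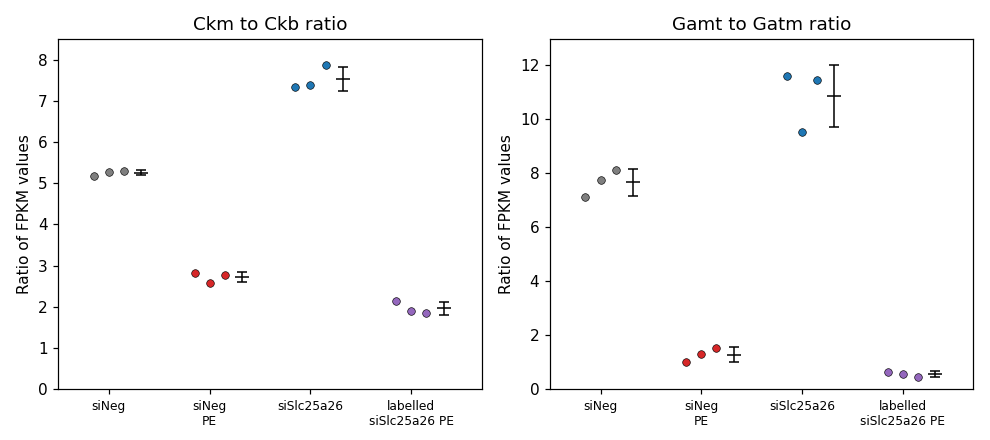
Ratio of FPKM values, Ckm to Ckb on the left and Gamt to Gatm on the right, for each library (points) with the mean and SD of each group of 3 (bars). Both ratios are lower in the PE groups, from means of 5.25 to 2.73 for Ckm to Ckb and from 7.66 to 1.28 for Gamt to Gatm in siNeg cells.

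Slc6a8, the creatine transporter, differed with PE and not detectably with the siRNA. It was at 159, 156 and 163 CPM in siNeg and at 101, 98.1 and 96.9 CPM in siNeg PE. Every PE library lay below every siNeg library, a 1.63-fold fall (log2 fold change -0.71, SE 0.0472, adjusted p = 2.63e-05). In siSlc25a26 it was at 159, 164 and 165 CPM and in the libraries labelled siSlc25a26 PE at 106, 100.3 and 95.3 CPM, a 1.61-fold fall with PE (log2 fold change -0.69, SE 0.0523, adjusted p = 9.37e-06). The siRNA groups overlapped both without PE (log2 fold change 0.0052, SE 0.0444, adjusted p = 0.934) and with it (0.017, SE 0.0615, adjusted p = 0.852), and the sign of these differences changed with the scaling.

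Ckm, the muscle form, went down with PE and lay lower in the siSlc25a26 libraries. It was at 1327, 1369 and 1233 CPM in siNeg and at 916, 788 and 794 CPM in siNeg PE, a 1.59-fold fall without overlap (log2 fold change -0.67, SE 0.0733, adjusted p = 0.00026). In siSlc25a26 it was at 935, 922 and 906 CPM and in the libraries labelled siSlc25a26 PE at 602, 554 and 490.3 CPM, a 1.67-fold fall (log2 fold change -0.74, SE 0.0689, adjusted p = 3.14e-05). Without PE the siRNA difference was 1.45-fold, also without overlap, and passed the adjusted p but not the fold line (log2 fold change -0.53, SE 0.0565, adjusted p = 0.000106). Under PE it was 1.53-fold and just past that line (-0.61, SE 0.0935, adjusted p = 0.00101).

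These siRNA calls of Ckm depended on single libraries. Without siNeg replicate 3 the difference without PE became -0.60 and was called. Under PE it became -0.53 and was lost without either siNeg PE replicate 1 or the library labelled siSlc25a26 PE replicate 3. Leaving out the latter also took away the call of Ckmt2 (-0.57) and so left 2 of 9 members called in that comparison. The adjusted p stayed under 0.05 in each of these fits.

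Ckb, the brain form, had its lowest level in siSlc25a26. It was at 255, 258 and 232 CPM in siNeg and at 324, 304 and 284 CPM in siNeg PE, so that all PE libraries were above all siNeg libraries, but by 1.21-fold and inside the fold line (log2 fold change 0.28, SE 0.0653, adjusted p = 0.00864). In siSlc25a26 it was at 127, 124 and 115 CPM. This was a 2.07-fold fall against siNeg (log2 fold change -1.05, SE 0.0634, adjusted p = 2.70e-06). In the libraries labelled siSlc25a26 PE it was back at 280.4, 292 and 265 CPM, a 2.30-fold rise with PE (log2 fold change 1.203, SE 0.0575, adjusted p = 6.13e-07) that overlapped with siNeg PE (log2 fold change -0.14, SE 0.0716, adjusted p = 0.165).

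Ckm and Ckb therefore made up different shares of the creatine kinase transcripts. Of the summed FPKM of Ckm, Ckb, Ckmt1 and Ckmt2, Ckb took 15.8% ± 0.160 in siNeg, 26.3% ± 0.922 in siNeg PE, 11.6% ± 0.397 in siSlc25a26 and 33.2% ± 1.69 in the libraries labelled siSlc25a26 PE (SD, n = 3 each). Ckm took 83.1%, 71.8%, 87.1% and 65.0%. The ratio of Ckm to Ckb was 5.18, 5.29 and 5.29 in siNeg, 2.82, 2.59 and 2.78 in siNeg PE, 7.34, 7.38 and 7.88 in siSlc25a26, and 2.14, 1.89 and 1.85 in the libraries labelled siSlc25a26 PE, with no overlap between groups. The sum of the 4 transcripts was 1191 ± 67.6 FPKM in siNeg and 581 ± 39.3 FPKM in the libraries labelled siSlc25a26 PE. On that scale siNeg PE (843 ± 55.7 FPKM) and siSlc25a26 (817 ± 22.2 FPKM) lay in between and overlapped. In TMM-normalized CPM the latter 2 groups did not overlap. The sum was there 1258, 1108 and 1095 in siNeg PE and 1073, 1056 and 1031 in siSlc25a26, so their order depends on the scale.

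The mitochondrial forms were far less abundant and differed with the siRNA in opposite directions. Ckmt2 was at 13.5, 16.9 and 11.3 CPM in siNeg, and at 16.3, 14.8 and 16.0 CPM in siNeg PE, which overlap (log2 fold change 0.16, SE 0.144, adjusted p = 0.369). It was lower in siSlc25a26, at 8.76, 8.83 and 9.14 CPM (log2 fold change -0.67, SE 0.145, adjusted p = 0.00551). It was also lower in the libraries labelled siSlc25a26 PE than in siNeg PE, at 11.003, 10.1 and 9.70 CPM (-0.62, SE 0.0939, adjusted p = 0.000948). The difference without PE was -0.51 and no longer past the fold line without siNeg replicate 2, the highest siNeg library, and it was -0.41 with limma on log2(FPKM + 1).

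Ckmt1 was close to the limit of detection, with 13, 11 and 7 estimated counts in siNeg, 17, 26 and 26 in siNeg PE, 58, 38 and 29 in siSlc25a26 and 42, 58 and 70 in the libraries labelled siSlc25a26 PE. The siNeg libraries were the lowest, and on the CPM scale every siSlc25a26 library lay above every siNeg library. The log2 fold change was 1.85 without PE (SE 0.359, adjusted p = 0.00317) and 1.27 under PE (SE 0.272, adjusted p = 0.00563). The difference with PE in siNeg (1.22, SE 0.335, adjusted p = 0.0166) stayed near that size but was not called without siNeg PE replicate 2 (1.15, adjusted p = 0.063) or replicate 3 (1.11, adjusted p = 0.0581). With PE in siSlc25a26 the groups overlapped (0.66, SE 0.291, adjusted p = 0.086), and this difference was called at 0.84 without the library labelled siSlc25a26 PE replicate 1 and at 0.97 without siSlc25a26 replicate 1.

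Of the adenylate kinases, Ak1 differed little. It was at 258, 252 and 258 CPM in siNeg, 279.7, 246 and 256 CPM in siNeg PE and 268, 279.9 and 277 CPM in siSlc25a26. In the libraries labelled siSlc25a26 PE, the group with the lowest mean, it was at 248, 209 and 198 CPM. Its log2 fold change was -0.32 with PE in siSlc25a26 (SE 0.0772, adjusted p = 0.00703) and between -0.27 and 0.078 in the other pairwise comparisons, all inside the fold line. Its estimated counts were not whole in 11 of 12 libraries, so that Ak1 shares the limit of Gamt.

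Ak4 was low throughout, at 11.3, 10.6 and 9.52 CPM in siNeg and at 8.28, 8.59 and 9.18 CPM in siNeg PE (log2 fold change -0.29, SE 0.109, adjusted p = 0.0577). It was highest in siSlc25a26, at 13.4, 14.7 and 13.5 CPM, above all siNeg libraries but inside the fold line (0.37, SE 0.0973, adjusted p = 0.0133). The libraries labelled siSlc25a26 PE were at 7.80, 6.68 and 6.80 CPM. Ak4 thus fell 1.94-fold with PE in siSlc25a26 (-0.95, SE 0.0979, adjusted p = 5.62e-05). Under PE these libraries lay below all siNeg PE libraries, opposite in sign to the siRNA difference without PE. That difference under PE was inside the fold line and did not pass the adjusted p (-0.30, SE 0.108, adjusted p = 0.0531).

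**Figure D4:**
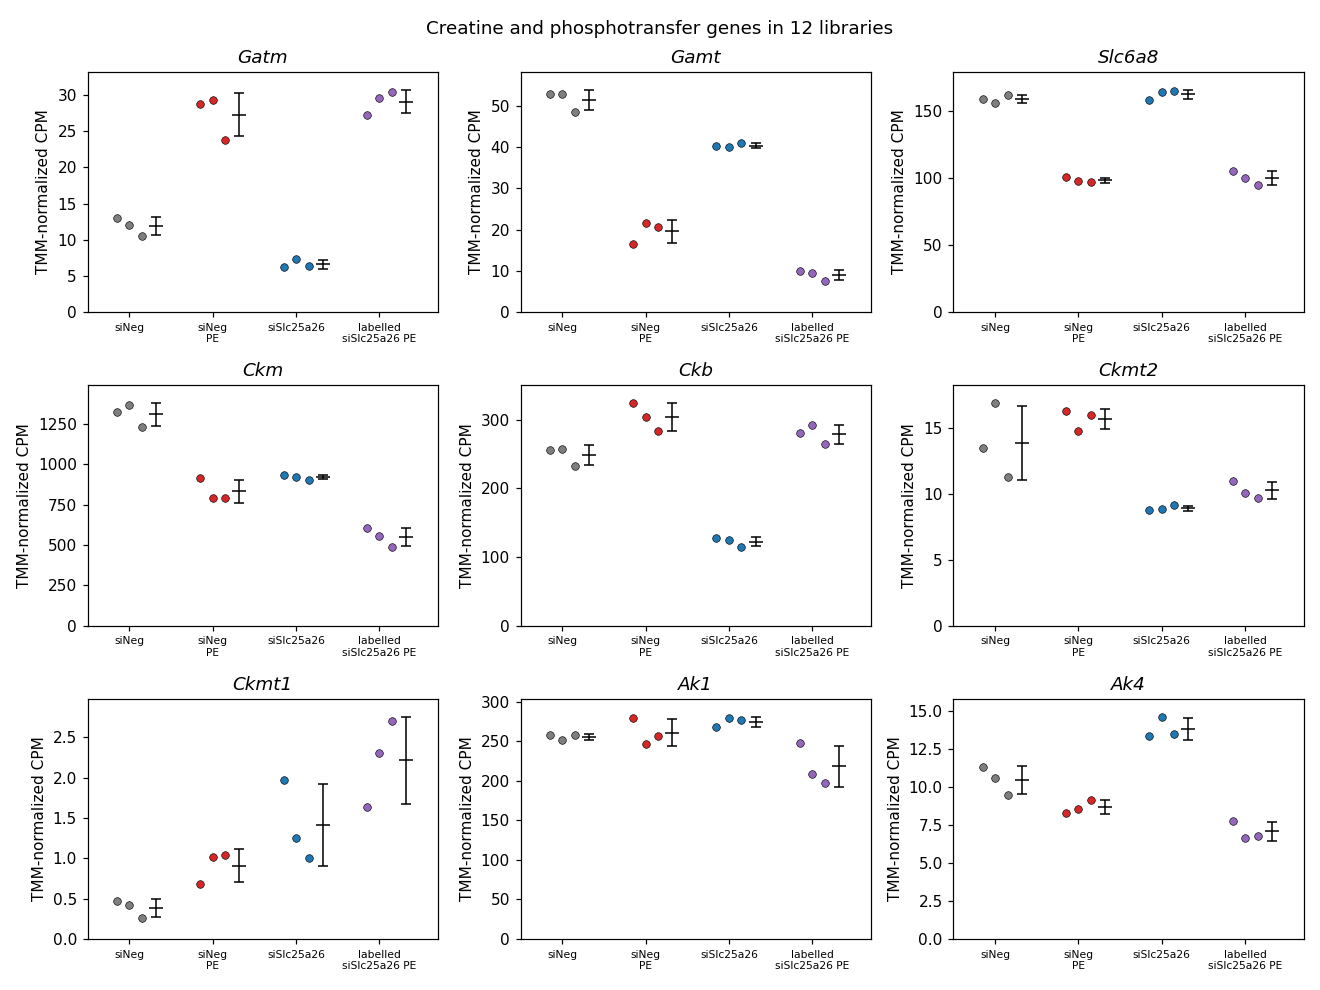
TMM-normalized CPM of each gene in each library (points), with the mean and SD of each group of 3 (bars); every axis starts at 0 and has its own scale. Gatm rises and Gamt and Slc6a8 fall from siNeg to siNeg PE without overlap, and Ckb is lowest in siSlc25a26 at 115 to 127 CPM.

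Whether PE acted differently in the siSlc25a26 cells was tested as an interaction over all 12 libraries, in which 5.50% of all genes were called (2.16% with a higher and 3.34% with a lower PE effect in siSlc25a26). Of the 9 members, 4 were called. The PE effect of Gatm was higher by 0.93 on the log2 scale (SE 0.150, adjusted p = 0.00233) and that of Ckb by 0.90 (SE 0.0923, adjusted p = 0.000196). The PE effect of Gamt was lower (log2 difference -0.77, SE 0.151, adjusted p = 0.0068), as was that of Ak4 (log2 difference -0.69, SE 0.138, adjusted p = 0.0072). For Gatm and Ckb the siSlc25a26 group started lower and the PE groups overlapped, whereas for Gamt the siRNA groups lay further apart with PE than without. Ak1 had a lower PE effect that passed the adjusted p but not the fold line (log2 difference -0.36, SE 0.105, adjusted p = 0.0442). Ckm (log2 difference -0.093, SE 0.110) and Slc6a8 (-0.0042, SE 0.0678) showed no detectable difference, with adjusted p of 0.631 and 0.979. Neither did Ckmt1 (-0.59, SE 0.466, adjusted p = 0.457) or Ckmt2 (0.027, SE 0.174, adjusted p = 0.94).

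Markers of cell types were tested in the same comparisons. Over all genes tested, 20.7% were called with PE in siNeg and 20.5% with PE in siSlc25a26. Between the siRNAs 16.1% were called without PE and 15.8% under PE, and 5.50% were called in the difference of PE effects. Counts near or below these shares are not read as particular to a list. Of 10 fibroblast markers, 6 fell with PE in siNeg, 7 were lower in siSlc25a26 without PE, 4 were lower and 1 was higher under PE, and 1 fell with PE in siSlc25a26. Their median log2 fold changes were -0.66, -0.74, -0.40 and -0.30. Of the 5 macrophage markers tested, 4 fell with PE in siNeg (median -1.01) and 3 were lower in siSlc25a26 without PE (median -0.80), and 2 had a higher PE effect in siSlc25a26 (median 0.71). Their summed level was 15.8 to 21.2 FPKM in siNeg and 7.79 to 11.01 FPKM in the other groups, with Cd163 at 0 in the latter. Of 6 smooth muscle and pericyte markers, 1 rose and 2 fell with PE in siNeg, 2 rose and 1 fell with PE in siSlc25a26, 1 was lower in siSlc25a26 without PE (Myh11, -1.42), and 1 was higher and 2 were lower under PE. Cspg4 of that list had a higher PE effect in siSlc25a26 (1.10). Of the cardiomyocyte markers, 4 of 10 rose with PE in siNeg and 5 of 10 with PE in siSlc25a26, 1 was lower in siSlc25a26 without PE and 1 was higher under PE. Of the interferon response genes, 11 were higher in each siRNA comparison, with medians of 6.58 without PE and 6.27 under PE. With PE, 1 of the 12 rose and 2 fell in siNeg (median -0.45), and 1 rose and 9 fell in siSlc25a26 (median -0.80). A lower PE effect in siSlc25a26 was called for 4 of them (median of the 12, -0.42). The part of these shifts in the values of the members was not tested. In RNA from a whole culture, fewer cells of a type and less RNA per cell cannot be told apart.

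Other genes of phosphate transfer were taken from lists chosen for their roles. Of 16 further adenylate and nucleoside phosphate kinases, 12 were tested in each comparison. With PE in siNeg 2 of them fell, and with PE in siSlc25a26 1 rose and 3 fell, against 20.7% and 20.5% of all genes. Without PE 1 was higher and 1 was lower in siSlc25a26, and under PE 1 was higher and 2 were lower, against 16.1% and 15.8%. The median log2 fold change of the 12 was 0.099, 0.13, -0.16 and -0.15 in these comparisons, beside the medians of all genes given above. Neither the counts nor the medians are read as particular to the list. Cmpk2, a mitochondrial UMP-CMP kinase induced by interferon, was at 4.97, 4.23 and 3.76 CPM in siNeg and at 293, 249 and 257 CPM in siSlc25a26 (log2 fold change 5.92, SE 0.110, adjusted p = 8.25e-10). Under PE it was 5.29 higher on the same scale (SE 0.0999, adjusted p = 4.23e-09), and PE lowered it both in siNeg (-0.79, adjusted p = 0.00405) and in siSlc25a26 (-1.41, adjusted p = 1.43e-06). Nme2, which encodes a nucleoside diphosphate kinase, was lower in siSlc25a26 without PE (-0.62, SE 0.0768, adjusted p = 0.000266), and its relative Nme3 was lower under PE (-0.63, SE 0.209, adjusted p = 0.0384). Nme1 rose with PE in siSlc25a26 (0.79, SE 0.0675, adjusted p = 1.86e-05). Reads of Nme1 and Nme2, which are close paralogs, could have been split between them, though the estimated counts of Nme1 were whole numbers in every library. Those of Nme3 were not whole in any library, so that Nme3 shares the limit of Gamt.

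Of 10 genes tested for exchange of adenine nucleotides and phosphate across mitochondrial membranes, 1 fell with PE in siNeg, 2 fell with PE in siSlc25a26, 1 was higher in siSlc25a26 without PE and 1 was lower under PE, beside the same shares of all genes. Their medians were 0.061, 0.13, -0.15 and -0.26. Slc25a42, a carrier of coenzyme A and adenine nucleotides, was at 40.2, 38.9 and 41.3 CPM in siNeg and at 21.0, 19.6 and 25.5 CPM in siNeg PE (log2 fold change -0.88, SE 0.103, adjusted p = 0.000352). With PE in siSlc25a26 it fell by 1.65 on the log2 scale (SE 0.0711, adjusted p = 3.50e-07), and its PE effects differed (-0.80, SE 0.125, adjusted p = 0.0021). Slc25a4, the main ADP/ATP carrier of heart mitochondria, was at 1915, 1891 and 1816 CPM in siNeg PE, and in the libraries labelled siSlc25a26 PE at 1339, 1185 and 1126 CPM (log2 fold change -0.63, SE 0.076, adjusted p = 0.000271). Slc25a23, a calcium-regulated carrier of ATP-Mg and phosphate, was higher in siSlc25a26 without PE (0.62, SE 0.0505, adjusted p = 2.04e-05).

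Of 10 genes for subunits of the energy sensor AMPK and for AMP deaminases, 1 rose and 1 fell with PE in siNeg, 2 rose and 2 fell with PE in siSlc25a26 (9 tested), 2 were higher and 1 was lower in siSlc25a26 without PE, and 1 was higher under PE (9 tested), again beside those shares. Their medians were -0.052, 0.0090, 0.020 and -0.056. Prkaa2, the catalytic α2 subunit of AMPK, was at 36.5, 47.9 and 70.9 CPM in siNeg, at 109, 141 and 150.4 CPM in siNeg PE and at 154, 147 and 139 CPM in siSlc25a26. It rose with PE in siNeg (log2 fold change 1.36, SE 0.224, adjusted p = 0.00176) and was higher in siSlc25a26 both without PE (1.48, SE 0.189, adjusted p = 0.000328) and under PE (0.76, SE 0.140, adjusted p = 0.0027). Ampd1, the muscle form of AMP deaminase, had 28, 31 and 32 estimated counts in siNeg, 4, 1 and 0 in siNeg PE and 3, 2 and 4 in siSlc25a26; it was called as lower in both comparisons, and no fold is given so near to 0. Ampd3, another AMP deaminase, fell with PE in siSlc25a26 (-1.28, SE 0.0703, adjusted p = 1.32e-06) and had a lower PE effect there than in siNeg (-0.85, SE 0.116, adjusted p = 0.000944). Its estimated counts were not whole except in the library labelled siSlc25a26 PE replicate 3, so that Ampd3 also shares the limit of Gamt. Prkag3, a γ subunit of AMPK, rose with PE in siSlc25a26 (0.85, SE 0.193, adjusted p = 0.0056).

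Finally, for each of the 8 members called in a pairwise comparison, the 2 most similar profiles were sought among 9324 other genes, as the root mean square (RMS) difference of log2 CPM over the 12 libraries after centring each gene. The closest match of all was that of Slc6a8 with Akap1, at an RMS difference of 0.0355, followed by Fam110b at 0.051; the SD of Slc6a8 itself was 0.350 on that scale. Ckm was closest to Mcrip1 (0.0704) and Rtn2 (0.0785), with an SD of 0.457. Ckb was closest to Myl9 (0.133) and Dpy19l3 (0.150), with an SD of 0.525. Gatm was closest to Scd2 (0.186) and Aif1l (0.195), with an SD of 0.890, and Gamt to Rab3b (0.190) and Pik3ip1 (0.203), with an SD of 0.990. Ckmt2 was closest to Haus4 (0.0965) and Ndufb6 (0.0969), with an SD of 0.347, and Ak4 to Il6r (0.101) and Slc6a9 (0.110), with an SD of 0.363. Ckmt1 was matched less closely, by Tent5a (0.321) and Wsb1 (0.347), with an SD of 0.911. The 12 libraries fall into 4 groups, so these matches describe the group pattern and carry no test.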

How the data were processed

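RNA of NRVMs was sequenced in 12 libraries, 3 per group, and groups and replicate numbers were taken from the sample titles. The authors deposited estimated counts per gene, of which 20.8% to 21.9% per library were not whole numbers, and FPKM values, scaled by transcript length and library total. HISAT, Bowtie2 and the build Rnor_6.0 are named in the submitters' processing notes, without versions; the counting program, annotation and strandedness are not given in the sources used here. No coordinate of the tables is given, and promoters are from GRCr8.

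Counts were rounded, since the planned tests take whole counts. They were tested with edgeR 4.0.16 (TMM, filterByExpr, quasi-likelihood F-test, Benjamini-Hochberg adjustment over all genes tested) in R 4.3.3. Only the compared groups entered a fit, and all 12 libraries entered the interaction. Standard errors were taken from the F statistic. CPM values used TMM factors over all 12 libraries. Genes alike needed a mean of at least 10 CPM, with log2 CPM at a prior count of 2. All 9 members, Slc25a26, the called gene with the largest rise and fall of each pathway list and the 2 most similar genes per called member were named. Alternatives were DESeq2 1.42.0, limma 3.58.1 (voom, log2(FPKM + 1) and log2(FPKM + 0.1)), DESeq2 size factors, no filter, at least 10 counts in every library, a replicate block, all 12 libraries, no fold threshold and leaving out each library. The tests were checked on simulated data. The members and lists were chosen with earlier results of these data known. No 2 replicates were close enough to be 1 library deposited under 2 names, with a chi-square per gene of at least 5.34. Depth was 24770972 to 28709049 counts per library, and floors cover counting error only. The labels give no sequencing batch.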

Additional observations from a re-analysis of the deposited data

Results flagged for a closer look

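The PE effect differed between siSlc25a26 and siNeg cells for 4 of the 9 members in edgeR's interaction test over all 12 libraries, each by over 1.5-fold with an adjusted p under 0.05, as were 776 of all 14097 genes tested (5.5%). The difference was 0.93 on the log2 scale for Gatm and 0.90 for Ckb, with a larger rise in siSlc25a26, and -0.77 for Gamt and -0.69 for Ak4, with a larger fall. Leaving out any of the 12 libraries kept these 4 calls; with limma on log2(FPKM + 1) that of Ak4 was inside the fold line (-0.52). The targeted gene Slc25a26 showed such a difference as well (1.06, SE 0.128, adjusted p = 0.000466), since its level in the libraries labelled siSlc25a26 PE was that of siNeg PE, and the share of this in the values of the members was not tested.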

How the results depend on the processing

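Every called member kept its direction under all alternatives run. Without a fold threshold, 7 members in place of 4 were called between siSlc25a26 and siNeg without PE, beside 6221 in place of 2229 of all 13829 genes tested. Leaving out 1 library at a time, the members called numbered 4 to 5 with PE in siNeg, 6 to 7 with PE in siSlc25a26, 3 to 5 without PE and 2 to 4 under PE between the siRNAs, and 4 in the difference of PE effects; the fall to 2 came without the library labelled siSlc25a26 PE replicate 3. With limma on log2(FPKM + 1), the calls of Ckmt1 with PE in siNeg (0.36) and under PE (0.56) were lost as well, and with limma on log2(FPKM + 0.1) that of Ckmt2 without PE (-0.45). Requiring at least 10 counts in every library left out Ckmt1 in 3 of the 5 comparisons.

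Members that were not called changed sign as follows. With limma on log2(FPKM + 1) and log2(FPKM + 0.1), Ak1 with PE in siNeg was at -0.029 and -0.029, Ckmt2 with PE in siSlc25a26 at -0.099 and -0.11, Ckmt2 in the difference of PE effects at -0.29 and -0.32, and Slc6a8 under PE at -0.054 and -0.056. Slc6a8 was also at -0.0043 (DESeq2) and -0.0058 (DESeq2 size factors) without PE, at -0.0016 (at least 10 counts) under PE, and at 0.021 (DESeq2), 0.022 (DESeq2 size factors) and 0.0012 (no filter) in the difference of PE effects. Leaving out 1 library, the range was -0.028 to 0.064 for Ak1 with PE in siNeg, -0.018 to 0.024 for Slc6a8 without PE, -0.017 to 0.063 for Slc6a8 under PE, -0.027 to 0.13 for Gatm under PE, -0.14 to 0.16 for Ckmt2 and -0.043 to 0.031 for Slc6a8 in the difference of PE effects. The cause was not tested.

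Over all genes, limma on log2(FPKM + 1) called 1590 in place of 2838 with PE in siNeg, 1284 in place of 2229 without PE and 1379 in place of 2162 under PE. Without a fold threshold 6785, 7219, 6221, 5488 and 1581 genes passed in the 5 comparisons, in place of 2838, 2825, 2229, 2162 and 776. On the FPKM scales the median of all genes shifted to -0.13 and -0.17 with PE in siSlc25a26 and to -0.11 and -0.14 in the difference of PE effects, where 23.4% and 22.1% of calls were higher in place of 39.3%.

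Replicate numbers recur in all groups, and no source says that a number marks a shared preparation. Correlations of the deviations of same-numbered libraries from their group means were 0.14, 0.0094 and 0.22 with PE in siNeg and 0.21, 0.025 and 0.17 under PE, but -0.0054 or lower with PE in siSlc25a26 and between -0.091 and 0.056 without PE, so that not every pair passed 0.1 in any comparison and the libraries were not treated as paired. When the best match was sought in the other groups, 7 of 12 libraries matched best with their own number. Same-numbered libraries were among the candidates for each library, so some such matches arise without any pairing. Whether 7 exceeds that was not tested. With a replicate block 5, 6, 4, 4 and 4 members were called, as without it, and 2969, 2710, 2151, 2195 and 945 of all genes, in place of 2838, 2825, 2229, 2162 and 776. Ckmt1, at 7 to 70 counts per library, is the member most limited by depth.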
